A study of Mus musculus with 13 samples.

Results

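The glutathione transferases considered here are the 9 genes Gsta1, Gsta2, Gsta3, Gsta4, Gstm1, Gstm2, Gstp1, Gstt1 and Gsto1, found by gene symbol among the 20325 genes of 13 mouse RNA libraries. All 9 were present in every library. The family was chosen by measured values, the absence of Gsta1 counts in untreated knockout cells, so the knockout against wild type difference at day 0, and every contrast that takes Gsta1 back to that zero, is given as a description with no test. The cells were pre-iPSCs, cells on the way from embryonic fibroblasts to pluripotency that stalled as intermediates, with either a wild-type genotype (WT) or a knockout of Kdm3b (KO), a demethylase of histone H3 lysine 9. Each genotype was sequenced at day 0, day 2 and day 10 of ascorbic acid (50 µg/mL) given with an inhibitor of GSK3 (CHIR-99021) and an inhibitor of MEK (PD-0325901), with 2 libraries per group, lettered A and B. All cells grew in stem cell medium with 15% serum and LIF, and were passaged at day 4 on the way to day 10. Although the treatment label of the day 0 libraries names the 3 agents, their titles say DMSO, and they were read as untreated. A single library of V6.5 embryonic stem cells (ESCs), with the same treatment label and so of uncertain treatment, served as a level to compare against and entered no test.

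Glutathione transferases are dimeric enzymes that join the tripeptide glutathione to electrophilic compounds, which are then exported by membrane pumps and broken down further. The soluble enzymes fall into classes named after Greek letters, among them alpha (Gsta), mu (Gstm), pi (Gstp), theta (Gstt) and omega (Gsto), which differ in their substrates. Several alpha and mu genes are known targets of NRF2, the transcription factor encoded by Nfe2l2, which binds antioxidant response elements and is held in check by KEAP1. The alpha class is best known from liver, where its members are abundant. Kdm3b belongs to the erasers of a histone mark of silent chromatin.

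The libraries held 14891294 to 26430050 expected counts. Kdm3b was at 146 to 261 CPM (counts scaled to a common library total) in WT and at 17.7 to 65.5 CPM in KO, with KO against WT log2 fold changes of -2.71 at day 2 (FDR 0.00302) and -2.67 at day 10 (FDR 0.00121) in edgeR. Hepatocyte markers were near 0, as 5 of them summed to at most 1.16 CPM in any library, with Alb at or near 0. The sum of 8 naive pluripotency markers was 934 to 2158 CPM in WT at day 0, 4023 to 4506 CPM in WT at day 10, 1062 to 2634 CPM in KO at day 0, 1159 to 1324 CPM in KO at day 10 and 4018 CPM in the ESC library. Klf4 made up most of this sum at day 0, and in each genotype 6 of the 8 markers were called higher at day 10 than at day 0 (Nanog, Esrrb, Dppa5a, Tbx3, Tcfcp2l1 and Zfp42), while Klf4 was called lower in WT. The sum of 10 fibroblast markers was 7.999 to 16.8 CPM in WT at day 0 and 80.8 to 110 CPM at day 10, 1.65 to 2.59 CPM in KO at day 0 and 10.8 to 13.3 CPM at day 10, and 270 CPM in the ESC library, with Lum at 0 in every pre-iPSC library. The part of these marker differences in the results below was not tested. In bulk RNA, fewer cells with a transcript and less transcript per cell cannot be told apart. The labels do not state that A and B were separate cultures, so the p-values measure only the spread between these libraries, which may be technical.

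Promoters of Gsta1 and Gsta3 are shown because these genes had the widest genotype gaps of the family at day 0, that of Gsta2 because it is a near-copy of Gsta1, and that of Gstp1 as one rich in CpG dinucleotides. RefSeq sequences (GRCm38.p6) of 300 bases, from 250 before to 50 after the start site, were matched for 8 of the 9 genes. Gsta1 lies at chr9:78230419-78230718 on the plus strand, Gsta2 at chr9:78347096-78347395 on the minus strand, Gsta3 at chr1:21240335-21240634 on the plus strand and Gstp1 at chr19:4037863-4038162 on the minus strand. Capitals mark the longest run of letters shared by Gsta1 and Gsta2 (29 bases, starting at -118 and -121), the antioxidant response element core in Gsta3 (from -121) and the AP-1 site in Gstp1 (from -74).
Gsta1: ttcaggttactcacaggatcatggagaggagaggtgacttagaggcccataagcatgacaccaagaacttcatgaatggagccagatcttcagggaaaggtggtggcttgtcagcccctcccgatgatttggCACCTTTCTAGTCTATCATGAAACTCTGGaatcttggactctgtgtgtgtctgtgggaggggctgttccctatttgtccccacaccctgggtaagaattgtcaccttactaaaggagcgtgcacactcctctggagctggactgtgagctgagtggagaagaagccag
Gsta2: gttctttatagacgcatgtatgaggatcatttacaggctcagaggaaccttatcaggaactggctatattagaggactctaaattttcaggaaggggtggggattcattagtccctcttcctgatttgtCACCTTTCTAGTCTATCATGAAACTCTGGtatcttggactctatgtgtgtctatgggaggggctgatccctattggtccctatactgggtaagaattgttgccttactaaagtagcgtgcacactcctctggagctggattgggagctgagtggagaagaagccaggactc
Gsta3: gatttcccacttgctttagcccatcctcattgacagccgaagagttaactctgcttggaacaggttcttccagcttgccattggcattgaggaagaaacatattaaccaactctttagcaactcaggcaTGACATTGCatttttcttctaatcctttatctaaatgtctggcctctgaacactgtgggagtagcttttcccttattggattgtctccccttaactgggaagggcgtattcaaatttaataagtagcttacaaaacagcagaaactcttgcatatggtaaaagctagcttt
Gstp1: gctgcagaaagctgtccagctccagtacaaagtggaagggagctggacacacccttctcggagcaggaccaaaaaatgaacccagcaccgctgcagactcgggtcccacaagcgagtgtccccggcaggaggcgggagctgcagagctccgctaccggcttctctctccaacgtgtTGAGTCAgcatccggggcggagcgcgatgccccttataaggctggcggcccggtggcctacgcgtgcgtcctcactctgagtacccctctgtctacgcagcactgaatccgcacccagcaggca

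The Gsta1 and Gsta2 promoters were identical at 232 of 311 aligned columns (74.6%), against 51.2% for Gsta1 and Gsta3. Gsta1, Gsta2 and Gsta3 each held 2 CpG dinucleotides, a number below which only 14.0% of the mouse promoters of this length fell, while Gstp1 held 20 and Gsto1 held 16. The antioxidant response element core, searched as TGACNNNGC on both strands, was found in Gsta3 alone among the 9 promoters of the family (Gstm1 has 2 start sites) and in 12.4% of 32544 promoters. The AP-1 site, searched as TGANTCA, whose first letters it shares with the core so that 1 stretch can match both, was found in Gstp1 alone among them and in 7.79% of all promoters. A match of letters is a description of the sequence and not a measured site. Only 250 bases before and 50 after the start site were searched, so an element further away would not be seen.

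Close copies limit Gsta1, Gsta2 and Gstp1. The Gsta1 transcript (GENCODE M21) shared 89.7% of its 50-base windows with the other genes compared, and 82.9% of all its windows with Gm3776, which is not in the files under that symbol, and the Gsta1 and Gsta2 transcripts were identical at 96.7% of aligned columns. Gstp1 shared 62.3% of its windows with Gstp2. RSEM splits reads that fit several transcripts by estimation, so the division of counts between such copies is uncertain. Gstm1 shared 10.9% of its windows, Gstm2 1.08%, and Gsta3, Gsta4, Gstt1 and Gsto1 shared none with the genes compared.

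Per transcript length, the family was carried by a few genes. The 9 genes together reached 1009 TPM (a level per transcript length, on a common total) in the ESC library and 2762 TPM in replicate A of WT at day 0. Gsta4, whose enzyme acts on lipid peroxidation products such as hydroxynonenal, made up 31.2 to 59.7% of that sum, Gstp1 21.1 to 46.2% and Gsto1 7.69 to 22.7%. The 6 other genes made up the rest. In mean TPM, Gsta4 and Gstp1 held the first 2 places in every group, in an order that changed from group to group, and Gsto1 came next in each. In WT at day 10, Gstm1 (127 ± 6.96 TPM, SD, n = 2), Gstm2 (83.3 ± 7.22), Gsta3 (57.6 ± 10.2) and Gsta1 (53.9 ± 3.10) followed, and the means of the last pair differed by less than the SD of Gsta3.

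**Figure D1:**
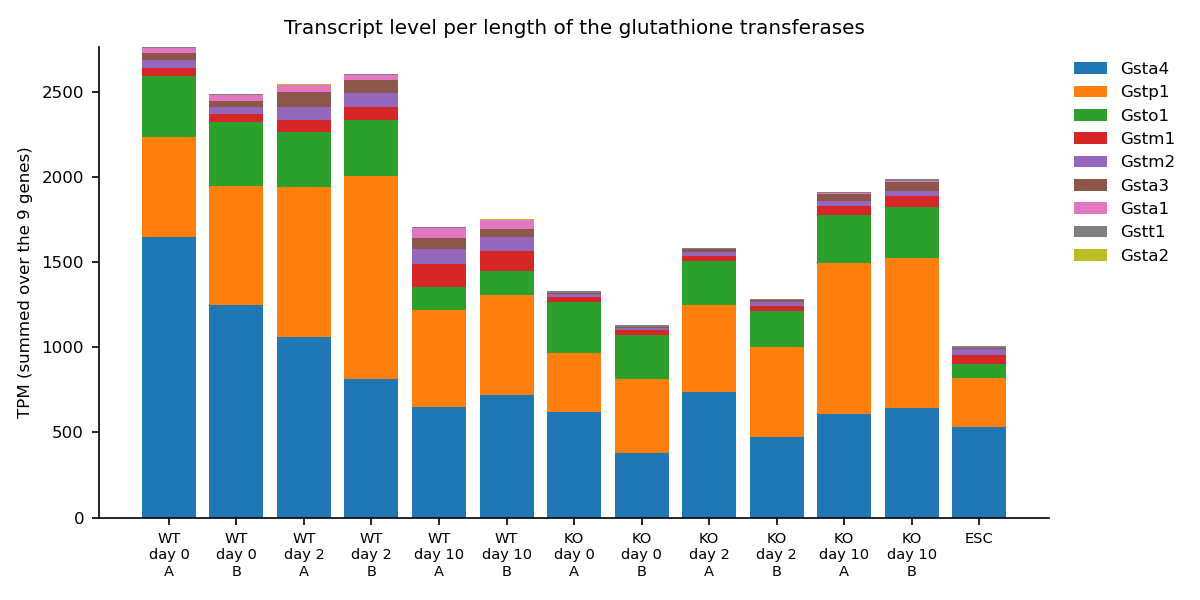
Stacked bars of TPM for the 9 glutathione transferases in each of the 13 libraries, with the replicate letter under each bar. The sum ran from 1009 TPM in the ESC library to 2762 TPM in replicate A of WT at day 0, and Gsta4 and Gstp1 formed most of each bar.

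Gsta1, an alpha-class enzyme, did not overlap between the genotypes at any day. In WT it was at 13.7 (A) and 12.98 (B) CPM at day 0, 19.0 and 12.7 CPM at day 2, and 23.8 and 22.3 CPM at day 10. In KO it was at 0 and 0 CPM at day 0, 0.240 and 0.134 CPM at day 2, and 2.61 and 2.88 CPM at day 10. The ESC library also had no count. Every WT library was above every KO library. As a ratio, though not as a difference in CPM, the KO libraries were nearest to WT at day 10. Summed over the libraries of a group, 612 counts in WT at day 0 stood against 0 in KO, at least 189-fold higher with the KO group set to 3 counts. At day 2 the sums were 655 and 7 counts, a ratio of 80.8 after scaling by library total (95% counting interval 39.0 to 201.8), and at day 10 they were 776 and 89 counts, a ratio of 8.44 (6.77 to 10.6). These intervals and bounds cover counting error only.

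In edgeR, KO was below WT in Gsta1 at day 2 (log2 fold change -6.23, SE 0.406, FDR 0.000183) and at day 10 (-3.01, SE 0.307, FDR 0.000375), and both calls held under all 20 alternatives. Within KO, Gsta1 rose from day 2 to day 10 (log2 fold change 3.73, SE 0.418, FDR 0.00521), from 7 to 89 summed counts, a ratio of 14.0 (6.51 to 35.8). With only the 4 libraries compared in the fit, the FDR of this rise was 0.109. Against day 0, KO at day 10 was at least 38.7-fold higher. Within WT, both day 10 libraries were above both day 0 libraries. The log2 fold change of 0.72 (SE 0.278) missed the threshold (FDR 0.0818). This WT rise passed with DESeq2 (FDR 0.0457), scaling by library total only (0.0484) and only the libraries compared in the fit (0.0430). It also passed with a replicate block over all libraries (0.0326), but not with RLE scaling or with no filter. Adding Gsta2 to Gsta1 gave 24.8 and 23.4 CPM in WT at day 10 and 2.70 and 2.88 CPM in KO at day 10.

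Gsta2, the near-copy of Gsta1, was at or near 0 in all groups but WT at day 10. There it reached 1.04 (A) and 1.09 (B) CPM, 36 counts in all. WT at day 0 had 0 counts, WT at day 2 had 4 counts, all in replicate A, KO at day 10 had 1 count, and the other KO groups and the ESC library had 0. WT at day 10 was at least 16.3-fold above WT at day 0 and at a ratio of 11.1 (3.97 to 42.9) to WT at day 2. Against KO at day 10 the ratio was 34.8 (5.87 to 1414). Gsta2 entered the fit only through the WT day 10 libraries, so its calls there (FDR 0.0127 against day 0, 0.0458 against day 2, and 0.0291 for KO against WT) had to go in this direction and are not counted as support. Each of these calls ended without either WT day 10 library, with FDRs up to 0.177, and with DESeq2. The first also ended without WT day 0 replicate A (0.0539), the day 2 call without WT day 0 B, WT day 2 B or either KO day 10 library, and the genotype call without either KO day 10 library. With no filter on low counts the day 2 call had an FDR of 0.0564.

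Gsta3, an alpha-class enzyme known in rodents for conjugating aflatoxin epoxide, was low in KO at the start and near WT at the end. In WT it was at 33.4 (A) and 20.8 (B) CPM at day 0, 65.7 and 47.9 CPM at day 2, and 44.9 and 35.7 CPM at day 10. The KO libraries were at 5.34 and 3.38 CPM at day 0, 10.5 and 5.78 CPM at day 2, and 28.04 and 40.0 CPM at day 10. The genotypes did not overlap at day 0 and day 2, and overlapped at day 10. KO was below WT at day 2 (log2 fold change -2.72, SE 0.447, FDR 0.00547), and at day 10 the difference was -0.20 (SE 0.416, FDR 0.782). Within KO, Gsta3 rose from day 0 to day 10 (log2 fold change 2.88, SE 0.455, FDR 0.00358), a call that held under all 20 alternatives. The rise from day 2 to day 10 was 1.99 (SE 0.437, FDR 0.0483). This last call ended without any 1 of the day 2 and day 10 libraries of either genotype, with FDRs of 0.0583 to 0.184, and with only the libraries compared in the fit (0.157). With only the libraries compared in the fit, the day 2 genotype difference had an FDR of 0.0746.

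The change of Gsta3 from day 0 to day 10 differed between the genotypes by 2.39 on the log2 scale (SE 0.605, FDR 0.0339). This interaction contains the day 0 difference through which the family was chosen, so it is given as a description and not counted as support. It ended without WT day 0 A, KO day 0 B or any of the 4 day 10 libraries, with FDRs of 0.0522 to 0.132. In the ESC library Gsta3 was at 0.896 CPM, from 18 counts, against which WT at day 10 stood at a ratio of 45.4 (28.6 to 76.8) and KO at day 10 at 38.1 (24.0 to 64.4). Gsta1 and Gsta3 were thus both higher in the day 10 cells of each genotype than in the 1 ESC library.

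**Figure D2:**
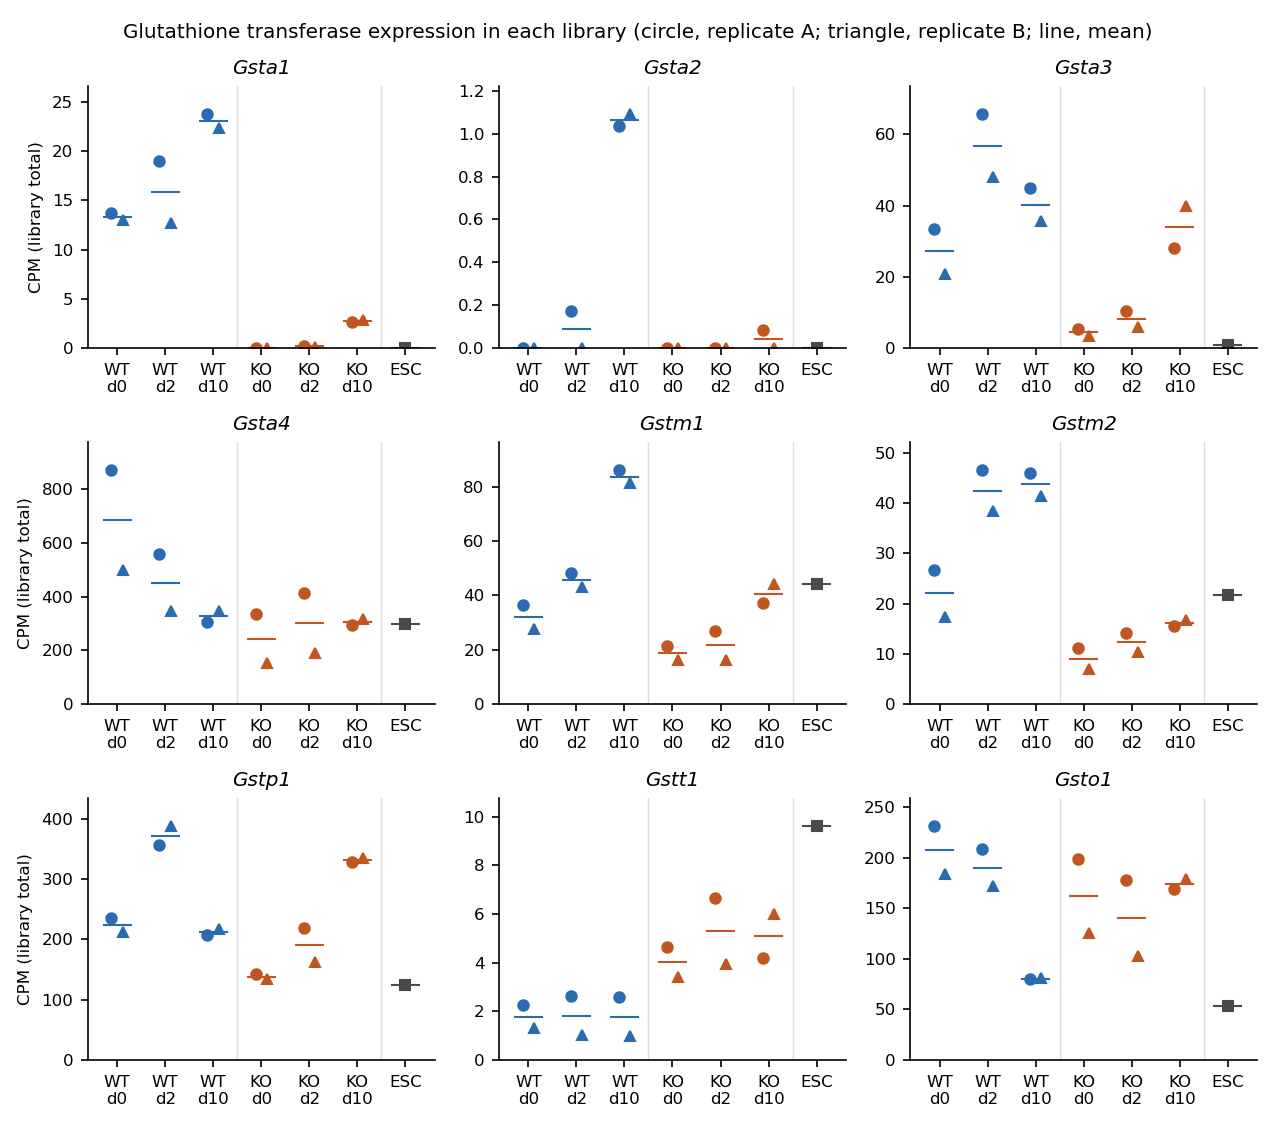
CPM on the library total of each gene in the 13 libraries, with WT in blue, KO in orange and the ESC library in grey; circles are replicate A, triangles replicate B, and lines group means. Gsta1 was at 12.98 to 13.7 CPM in WT and 0 in KO at day 0, and Gsta3 of KO rose from 3.38 to 5.34 CPM at day 0 to 28.04 to 40.0 CPM at day 10.

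Gsta4, the neighbour of Gsta1 on chromosome 9, did not follow it. It was at 872 (A) and 499 (B) CPM in WT at day 0, 560 and 345 CPM at day 2, and 307 and 348 CPM at day 10. KO libraries stood at 334 and 152 CPM at day 0, 413 and 191 CPM at day 2, and 296 and 318 CPM at day 10, and the ESC library was at 297 CPM. The spread between replicates was wide at days 0 and 2, and the day 10 libraries of both genotypes and the ESC library lay together. KO lay below WT at day 0 with no overlap. No contrast of Gsta4 passed the test in the edgeR fit without a replicate term. The log2 change of WT from day 0 to day 10 was -1.15 (SE 0.545, FDR 0.144), and KO against WT was -0.50 (SE 0.540, FDR 0.727) at day 2 and -0.05 (SE 0.538, FDR 0.965) at day 10. With only the libraries compared in the fit, the WT change from day 0 to day 10 had an FDR of 0.0452. With a replicate block at days 0 and 2 only, chosen after seeing the data, this change (FDR 3.77e-06) and the day 2 genotype difference (0.00218) were called, among other Gsta4 contrasts.

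The letter of the library moved with these values. Replicate A exceeded B in 8 of 8 members at or above 1 CPM in WT at day 0, 7 of 8 in WT at day 2, and 7 of 7 in KO at day 0 and at day 2. At day 10, A exceeded B in 5 of 9 members in WT and 0 of 8 in KO. Over 10762 genes at 5 CPM or more, A exceeded B in 39.5 and 40.3% of genes in WT at days 0 and 2, 41.7 and 43.2% in KO, and 54.6 and 51.3% in WT and KO at day 10. The A to B ratio of Gsta4 was 1.75 in WT and 2.20 in KO before treatment, 1.62 and 2.16 at day 2, and 0.883 and 0.932 by day 10. The part of this difference in the comparisons with day 10 was not tested.

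Of the mu class, Gstm1 and Gstm2 had lower values in KO than in WT at each day. Gstm1 was at 36.6 (A) and 27.7 (B) CPM in WT at day 0, 48.3 and 43.0 CPM at day 2, and 86.1 and 81.2 CPM at day 10. KO libraries had 21.2 and 16.2 CPM at day 0, 26.9 and 16.3 CPM at day 2, and 37.0 and 44.0 CPM at day 10, with 44.0 CPM in the ESC library. Every WT library was above every KO library of the same day, and the ESC level lay at the top of the KO day 10 values. Gstm1 rose in WT from day 0 to day 10 (log2 fold change 1.31, SE 0.312, FDR 0.0110) and was lower in KO than in WT at day 10 (-0.997, SE 0.310, FDR 0.0368). At day 2 the genotype difference was -0.99 (SE 0.311, FDR 0.0831). In KO the change from day 0 to day 10 was 1.04 (SE 0.312, FDR 0.0562). Both passed with DESeq2 (FDR 0.0273 and 0.0191), scaling by library total only (0.0360 and 0.0248) and a replicate block over all libraries (0.0202 and 0.0129). Neither passed with RLE scaling or with only the libraries compared in the fit. The rise in WT ended without WT day 0 B (0.0623) or WT day 10 A (0.0564). The genotype call at day 10 ended without WT day 2 A or any of the 4 day 10 libraries, with FDRs of 0.0523 to 0.166.

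Gstm2 was at 26.8 (A) and 17.3 (B) CPM in WT at day 0, 46.6 and 38.4 CPM at day 2, and 46.1 and 41.5 CPM at day 10. The KO values were 11.1 and 6.97 CPM at day 0, 14.2 and 10.4 CPM at day 2, and 15.6 and 16.8 CPM at day 10, with 21.6 CPM in the ESC library. Gstm2 of KO stayed below the lowest WT library at every day. KO was lower at day 2 (log2 fold change -1.71, SE 0.347, FDR 0.0143) and at day 10 (-1.39, SE 0.343, FDR 0.0139). The day 2 call ended without WT day 2 A (0.0791) or KO day 2 B (0.0696), and with only the libraries compared in the fit (0.0904). The day 10 call ended without any of the 4 day 10 libraries, with FDRs of 0.0525 to 0.0758. The WT change from day 0 to day 10 was 0.91 (SE 0.338, FDR 0.0677). This change passed with DESeq2 (FDR 0.0350), scaling by library total only (0.0283) and only the libraries compared in the fit (0.0407). It also passed with a replicate block over all libraries (0.00861), but not with RLE scaling or with no filter.

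Gstp1, the pi-class enzyme, changed places between the genotypes. In WT it was at 235 (A) and 212 (B) CPM at day 0, 356 and 388 CPM at day 2, and 207 and 217 CPM at day 10. In KO it was at 142 and 134 CPM at day 0, 219 and 163 CPM at day 2, and 329 and 335 CPM at day 10, with 124 CPM in the ESC library. KO lay below WT at days 0 and 2 and above it at day 10. KO was lower at day 2 (log2 fold change -0.88, SE 0.217, FDR 0.0344) and higher at day 10 (0.69, SE 0.216, FDR 0.0378). Gstp1 fell in WT from day 2 to day 10 (-0.83, SE 0.217, FDR 0.0194) and rose in KO from day 0 to day 10 (1.20, SE 0.218, FDR 0.00712). The rise in KO held under all 20 alternatives.

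The other Gstp1 calls did not. The day 2 genotype call ended without either WT day 2 library, KO day 2 B or any of the 4 day 10 libraries (FDR 0.0503 to 0.132), and with only the libraries compared in the fit (0.345). The day 10 genotype call ended without any of the 4 day 10 libraries (0.105 to 0.156), with RLE scaling (0.0530) and with Gstp2 added (0.278). The fall in WT ended without any WT library of days 2 and 10 (0.0631 to 0.107) and with Gstp2 added (log2 fold change -0.36, FDR 0.287). The change of Gstp1 from day 0 to day 10 was larger in KO than in WT by 1.34 on the log2 scale (SE 0.306, FDR 0.0229). This contrast again contains the day 0 difference and is not counted as support. It ended without WT day 0 A, KO day 0 B or any of the 4 day 10 libraries (0.0591 to 0.0892) and with Gstp2 added (0.0853).

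Gstp2, the close copy of Gstp1, was at 12.8 (A) and 8.75 (B) CPM in WT at day 0 and at 131 and 156 CPM at day 10, and at 10.7 and 7.95 CPM in KO at day 0 and 103 and 118 CPM at day 10. Its share of the Gstp1 and Gstp2 sum was 5.18 and 3.96% in WT at day 0 and 38.7 and 41.8% at day 10, and 7.02 and 5.58% in KO at day 0 and 23.8 and 26.1% at day 10. The sum itself was 248 and 221 CPM in WT at day 0, 439 and 459 CPM at day 2 and 338 and 373 CPM at day 10. In KO it was 153 and 142 CPM at day 0, 262 and 195 CPM at day 2 and 432 and 453 CPM at day 10. Counted together, the copies were above their day 0 level at day 10 in both genotypes.

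Gstt1, a theta-class enzyme, was the member with higher values in KO at every day. In WT it was at 2.27 (A) and 1.30 (B) CPM at day 0, 2.61 and 1.013 CPM at day 2, and 2.59 and 0.970 CPM at day 10. Levels in KO were 4.62 and 3.43 CPM at day 0, 6.67 and 3.96 CPM at day 2, and 4.19 and 5.995 CPM at day 10, with 9.61 CPM in the ESC library. The genotypes did not overlap at any day. The log2 difference of KO from WT was 1.62 (SE 0.615, FDR 0.152) at day 2 and 1.55 (SE 0.623, FDR 0.0922) at day 10. Neither passed the test in the edgeR fit without a replicate term. With a replicate block over all libraries the FDRs were 0.0340 and 0.0151. With only the libraries compared in the fit, the day 10 difference had an FDR of 0.00821.

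Gsto1, an omega-class enzyme that reduces dehydroascorbate, fell in WT. It was at 231 (A) and 184 (B) CPM in WT at day 0, 209 and 172 CPM at day 2, and 79.7 and 81.2 CPM at day 10. In KO it was at 199 and 126 CPM at day 0, 177 and 103 CPM at day 2, and 170 and 179 CPM at day 10, with 53.1 CPM in the ESC library. The genotypes overlapped at days 0 and 2 and separated at day 10. Gsto1 was lower in WT at day 10 than at day 0 (log2 fold change -1.44, SE 0.355, FDR 0.0128) and than at day 2 (-1.27, SE 0.353, FDR 0.0251). KO exceeded WT at day 10 (1.16, SE 0.353, FDR 0.0336), and within KO the change from day 0 to day 10 was 0.02 (SE 0.348, FDR 0.987). All 3 calls ended without either WT day 10 library. The fall from day 0 also ended without WT day 0 A, the fall from day 2 without WT day 2 A, and the genotype call without either KO day 10 library, with FDRs of 0.0586 to 0.141 over these fits.

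**Figure D3:**
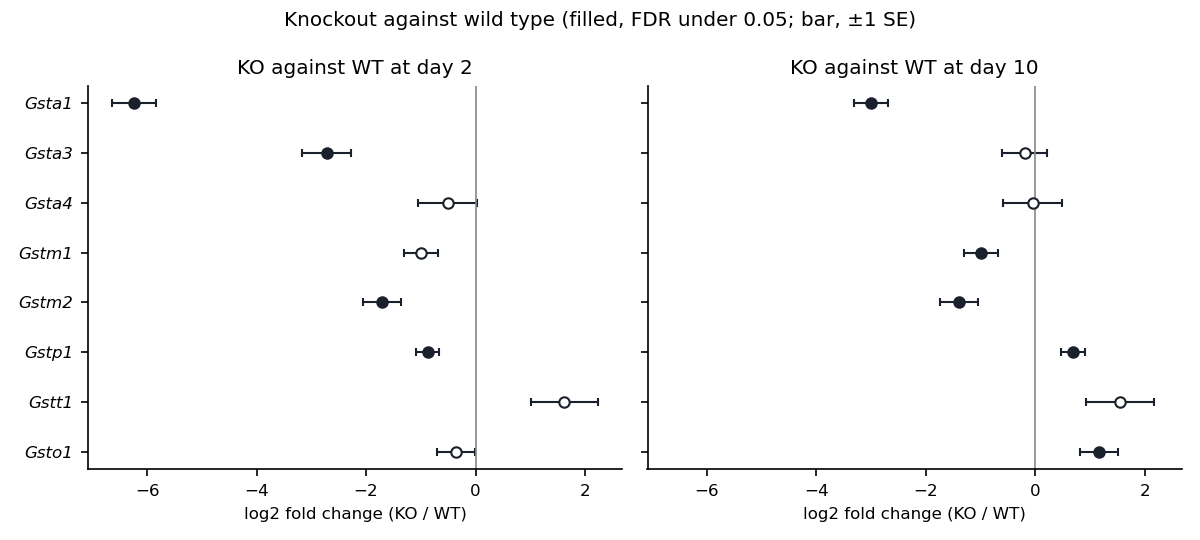
Log2 fold change of KO against WT at day 2 and day 10 for 8 of the 9 genes, with bars of 1 SE either side and filled points for an FDR under 0.05; Gsta2 is left out because it had too few counts. Gsta1 was at -6.23 and -3.01, and Gstp1 moved from -0.88 at day 2 to 0.69 at day 10.

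Counts over the family are set here beside the shares over all 14324 genes tested. At day 0, where the choice of the family used the values, 1 member (Gstt1) lay higher in KO with no overlap of libraries and 6 lay lower, beside 13.6 and 21.0% of all genes. Gsta2 is left out of all counts that follow, since it entered the fit only through WT at day 10. In KO against WT at day 2, 0 of 8 members were called higher and 4 lower (Gsta1, Gsta3, Gstm2 and Gstp1), where 4.29% of all genes were called higher and 6.16% lower. In KO against WT at day 10, 2 of 8 members were higher (Gstp1 and Gsto1) and 3 lower (Gsta1, Gstm1 and Gstm2), beside 12.4 and 19.9% of all genes. The median log2 difference of the 8 members was -0.94 at day 2 and -0.12 at day 10, against 0.02 and -0.02 over all genes.

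Over time in WT, 0 of 8 members were called between day 0 and day 2 by the edgeR fit without a replicate term. That fit called 3.32% of all genes higher and 1.98% lower. An unadjusted p under 0.05 was found there for 3 members, with no share over all genes to set beside it. DESeq2 called 1 member, beside 1434 genes in all. Between day 0 and day 10, 1 rose (Gstm1) and 1 fell (Gsto1), beside 21.0 and 13.1% of all genes. Between day 2 and day 10, 0 rose and 2 fell (Gstp1 and Gsto1), beside 18.3 and 11.2% of all genes. In KO, Gsta1 against day 0 is left untested. There the edgeR fit without a replicate term called 0 of 7 members between day 0 and day 2, beside 4.02% of all genes higher and 2.37% lower. DESeq2 also called 0, and 0 had an unadjusted p under 0.05. Between day 0 and day 10, 2 of 7 rose (Gsta3 and Gstp1) and 0 fell, beside 9.93 and 5.19% of all genes. Between day 2 and day 10, 2 of 8 rose (Gsta1 and Gsta3) and 0 fell, beside 2.49 and 0.607% of all genes. Comparisons within a genotype share their day 0, day 2 or day 10 libraries. An edgeR fit with a replicate block at days 0 and 2 only was chosen after seeing the data. Between day 0 and day 2 of KO it called Gsta3 (FDR 0.00565), Gstp1 (0.0109) and Gstm2 (0.0300). Between day 0 and day 2 of WT it called Gstm2 (5.65e-05), Gsta3 (0.000165), Gstp1 (0.000428) and Gstm1 (0.00868) higher and Gsta4 (0.00186) lower. With a block over all libraries, Gstm2 (0.0353) and Gstp1 (0.0492) were called there. The shares over all genes in these blocked fits are not given here.

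In the edgeR fit without a replicate term, the genotype difference in the change from day 0 to day 2 passed for 0 of 7 members. The shares over all genes were 0.126% higher in KO and 0.0698% lower. DESeq2 also called 0, and 0 had an unadjusted p under 0.05. For the change from day 0 to day 10 the edgeR difference passed for 2 of 7 (Gsta3 and Gstp1), both larger in KO, beside 6.35 and 6.20% of all genes. With the replicate block at days 0 and 2 only, Gsta4 passed for the change to day 2 (FDR 0.00508). These contrasts contain the day 0 difference that the choice of the family used and are not counted as support.

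The rest of the pathway was followed in lists of related genes, over time in WT and between genotypes at day 10, comparisons that share the WT day 10 libraries. The counts below stand beside 21.0% of all genes higher and 13.1% lower over time in WT, and 12.4% higher and 19.9% lower in KO at day 10. Gstm3, Ggt1, Ggt5, Gpx6, Abcc2 and Akr1b7 passed the filter only through WT at day 10, so they had to be highest there and are left out of the counts. Among the other soluble transferases, 2 of 11 rose in WT from day 0 to day 10 and 2 fell. Gstm6 rose by 2.40 (log2, FDR 0.000294) and Gstp2 by 3.66 (FDR 0.000100), while Gstt2 changed by -1.50 and Gstt3 by -0.67. Gstm3, with 3 counts in WT at day 0 and 406 at day 10, was at 11.6 and 12.6 CPM in WT and 0.362 and 0.0618 CPM in KO at day 10, with 7.01 CPM in the ESC library. Of the 11, 2 were lower in KO than in WT at day 10 (Gstm6 by a log2 difference of -2.03 and Gstk1 by -1.79) and Gstt3 was higher (1.57, FDR 0.00104). Gstt2, Gstt3 and Gstk1 were named after their values were seen, as were further genes below that complete a count.

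The membrane-bound family, which includes microsomal transferases and enzymes of prostaglandin and leukotriene synthesis, did not move in 1 direction. In WT from day 0 to day 10, Ptges, the prostaglandin E synthase, rose (log2 fold change 4.93, FDR 5.06e-05) and Mgst3 fell (-1.16, FDR 0.00351), of 5 tested. At day 10, Mgst1 was higher in KO (2.31, FDR 0.000556), at 116 and 150 CPM against 34.9 and 20.7 CPM in WT, as was Alox5ap (1.14, FDR 0.0485), and Ptges was lower (-2.90, FDR 0.000369). At day 2 Mgst1 was also higher in KO (1.29) and the other 4 genes tested, Mgst2, Mgst3, Ptges and Alox5ap, were lower. Over all genes, 4.29% were called higher in KO at day 2 and 6.16% lower.

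For glutathione synthesis and turnover, 2 of 15 genes rose in WT from day 0 to day 10 and 1 fell. Chac1, whose product degrades glutathione in the cytosol, rose by 2.64 and Cbs by 0.80, and the gene that fell was Slc7a11 (-1.16), the cystine importer. In KO against WT at day 10, Slc7a11 (1.69, FDR 0.00799) and Chac2 (1.20) were higher, and Chac1 (-2.15) and Anpep (-3.18) were lower. At day 2 Chac1 had the opposite sign, higher in KO by 3.11 (FDR 0.000807), while Gclm and Oplah were lower. These day 2 calls stand beside 4.29% of all genes higher in KO and 6.16% lower. Ggt1, which encodes an enzyme that cleaves extracellular glutathione, had 217 counts in WT at day 10 and 8 in KO. Slc7a11 stood at 250.5 and 202.8 CPM in KO and 67.7 and 77.4 CPM in WT. Gclc, the catalytic subunit of the enzyme that limits glutathione synthesis, was not called in either comparison.

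Of 10 glutathione peroxidase and glutaredoxin genes, 4 rose in WT from day 0 to day 10 and 0 fell. They were Gpx2 (6.62 on the log2 scale), Gpx3 (3.84), Gpx7 (1.36) and Glrx (2.23). In KO against WT at day 10, 0 were higher and 3 were lower: Gpx7 (-6.67, FDR 0.000126), Gpx2 (-5.29) and Gpx3 (-3.40). Gpx7 was at 14.3 and 13.1 CPM in WT and 0.187 and 0.0606 CPM in KO at day 10, and at 18.3 CPM in the ESC library. The median log2 difference of the 10 genes was -0.96, against -0.02 over all genes.

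Of 17 genes of the NRF2 pathway, 6 rose in WT from day 0 to day 10 and 1 fell. Bach1, a repressor at the same elements as NRF2, rose by 1.60 (FDR 0.000273), Nfe2l2 by 0.66 (FDR 0.0313), Tkt by 1.09 and Txnrd1 by 0.73, with Srxn1 (0.88) and Taldo1 (0.98), while Keap1 changed by -0.51 (FDR 0.0172). In KO against WT at day 10, Bach1 (-0.85), Tkt (-1.20), Srxn1 (-1.26) and Taldo1 (-0.91) were lower, Keap1 (0.53) and G6pdx (1.31) were higher, and Nfe2l2 differed by -0.36 (SE 0.198, FDR 0.208). At day 2 the 3 genes called were all lower in KO, where 6.16% of all genes were called lower: Nqo1 (-1.98, FDR 0.0291), Pgd (-1.07) and Srxn1 (-1.40). In KO from day 0 to day 10, 5 of the 17 rose, beside 9.93% of all genes, which were Nqo1 (2.88, FDR 0.00517), Pgd, Hmox1, Txnrd1 and Bach1.

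Of 6 export pumps, 1 rose in WT from day 0 to day 10 (Abcc3, at a mean under 1 CPM), and it was lower in KO than in WT at day 10. Among more abundant pumps, Abcc1 differed between genotypes at day 10 by -0.70 (FDR 0.420), Abcc4 by 0.79 (FDR 0.426) and Abcg2 by -0.18 (FDR 0.538), none of them past the threshold. Of 12 xenobiotic receptors and other detoxifying enzymes, 3 rose in WT and 2 fell, and at day 10 in KO against WT 5 were higher and 4 lower. Ephx2, soluble epoxide hydrolase, rose from 0.605 and 0.519 CPM in WT at day 0 to 138 and 163 CPM at day 10 and was at 6.06 and 2.73 CPM in KO at day 10 (KO against WT -5.05, FDR 0.000138). Ahr, the receptor for dioxin-like compounds, rose by 3.71 and Cyp1b1 by 4.24 in WT. Aldh3a1 was lower in KO at day 10 (-3.20) and Rxra higher (1.17).

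**Figure D4:**
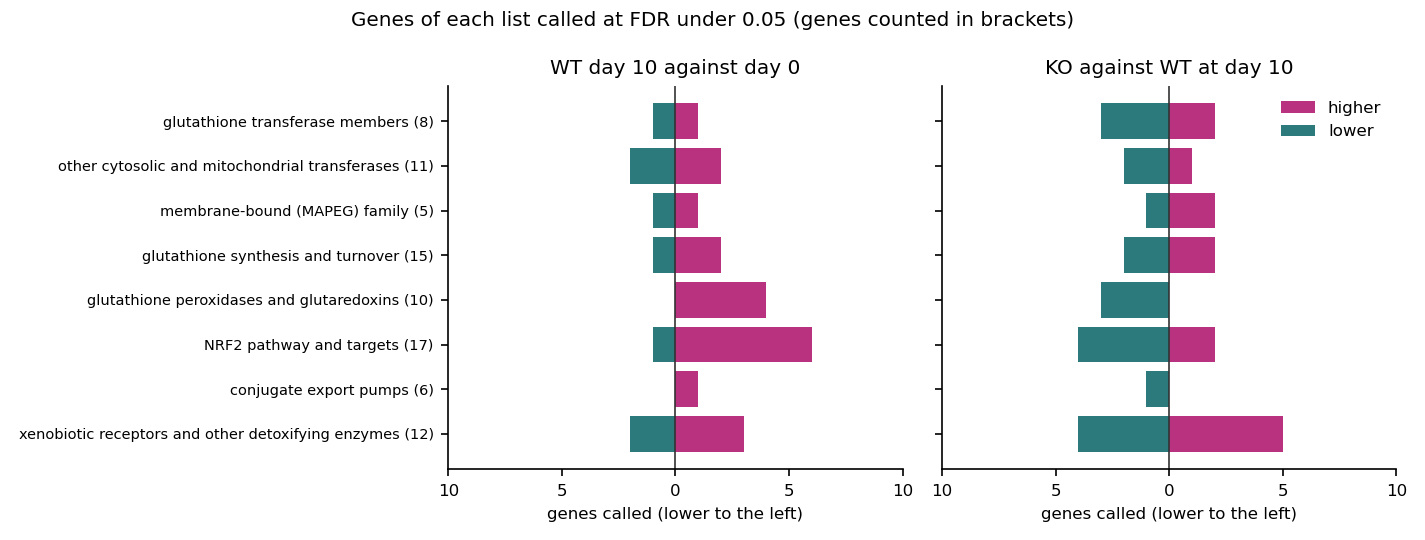
Number of genes of each list called higher (right) or lower (left) at an FDR under 0.05 in edgeR, for WT at day 10 against day 0 and for KO against WT at day 10, with the number of genes counted in brackets; genes that passed the filter only through WT at day 10 are left out. Peroxidases and glutaredoxins had 4 higher and 0 lower in WT over time, and 0 higher and 3 lower in KO.

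The likeness of other genes to the members was measured as the root mean square difference of centred log2 CPM over the 13 libraries, among 10755 genes averaging 5 CPM or more, for members whose group means spanned at least 4-fold. Gsta1 was nearest to Samd9l (0.682), Vnn1 (0.726) and Avil (0.766), and Gsta3 to Sybu (0.576), Saa3 (0.607) and Avil (0.631). Gstm1 lay closer to its neighbours, with Cat, which encodes catalase, at 0.173, Smad6 at 0.198 and Atxn10 at 0.244. Gstm2 was nearest to Ypel5 (0.273), Stk30 and 2610019F03Rik, and Gstt1 to Khk (0.428), Selm and Eras. Gsta2, Gsta4, Gstp1 and Gsto1 did not meet the rule. The distances are descriptions over libraries that share groups and depth.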

How the data were processed

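Total RNA was sequenced single-end from 13 libraries, 12 of pre-iPSCs in 6 groups of 2 and 1 of ESCs. Per the submitters' processing notes, Bowtie2, RSEM and mm9 were used, with versions not given in the sources used here. The authors deposited RSEM expected counts per gene, and TPM values, which divide by transcript length. CPM here is the expected count scaled by the library total.

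After rounding, the expected counts were fitted with edgeR 4.0.16 (glmQLFit, quasi-likelihood; R 4.3.3) in 1 model of all 6 groups of pre-iPSCs, after filterByExpr (14324 genes kept, at least 99.96% of each library's counts), TMM factors and Benjamini-Hochberg adjustment over all genes tested. Genes with a false discovery rate (FDR) under 0.05 were called. The fit left 6 residual degrees of freedom. Alternatives were DESeq2 1.42.0, a replicate block, RLE or no scaling, no filter, close copies summed, only the libraries compared, a stricter threshold and leaving out each library.

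Pooled counts carry 95% exact intervals, and a group at 0 was set to 3 counts over the group. The members, lists and tests were chosen with earlier results of these data known. Named genes are every member, the 3 genes of lowest FDR per list in WT day 10 against day 0 and in KO against WT at day 10 (mean at least 1 CPM), Nfe2l2, Keap1 and Bach1, and the 3 nearest genes by likeness.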

Additional observations from a re-analysis of the deposited data

Results flagged for a closer look

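Gsta3 changed more in KO than in WT between day 0 and day 10, by 2.39 on the log2 scale (edgeR interaction term, FDR 0.0339), from a day 0 level below WT to a day 10 level overlapping WT. Gstp1 also changed more in KO, by 1.34 (FDR 0.0229), from below WT at day 0 to above it at day 10. Both were picked out because the test of the difference between genotypes passed. Both contain the day 0 difference that the choice of the family used, so they are descriptions and not counted as support.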

How the results depend on the processing

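No member's called value changed sign with the processing. KO against WT of Gsta1 at days 2 and 10, and the KO rises of Gsta3 and Gstp1 from day 0 to day 10, kept their calls under all 20 alternatives. With an FDR under 0.01, the count of called members went from 3 to 0 in WT day 10 against day 0 and against day 2, from 2 to 1 in KO day 10 against day 2, from 4 to 2 and from 6 to 1 in KO against WT at days 2 and 10, and from 2 to 0 in the day 10 interaction. Library totals gave 5 and a fit of only the libraries compared gave 6 in WT day 10 against day 0; the latter fit gave 0 in KO day 10 against day 2 and 1 in KO against WT at day 2. Summing copies gave 1 in WT day 10 against day 2 and 1 in the day 10 interaction. DESeq2 gave 1 in WT day 2 against day 0 (1434 genes called in all), 4 in WT day 10 against day 0 (5254) and 3 in the day 10 interaction (2704). It gave 3 in KO day 10 against day 0 (2984) and 3 against day 2 (1325). In KO against WT it gave 5 at day 2 (2156) and 5 at day 10 (4910). The cause was not tested. These counts and those below include Gsta2 wherever it was tested. Gsta2 entered the fit only through WT at day 10, so the direction of its calls was fixed in advance and they are not support. Except with DESeq2, counts over all genes are given neither beside these counts nor beside those below. Counts of members that lack them are not read as results about the family.

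Leaving out 1 library gave 0 to 4 calls in WT day 10 against day 0 and 0 to 4 against day 2, 0 throughout in day 2 against day 0 of both genotypes and in the day 2 interaction, 2 to 3 in KO day 10 against day 0, 1 to 2 against day 2, 2 to 5 and 1 to 6 in KO against WT at days 2 and 10, and 0 to 3 in the day 10 interaction. In the fits without 1 library of a group, the lone library is assumed to vary like the other groups.

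The letters A and B were not stated to pair libraries. The difference A minus B correlated between groups of days 0 and 2 at r of 0.892 to 0.931 across 10762 genes, which are not independent, and at -0.189 to 0.0200 where a day 10 group was involved. With a replicate block over all libraries, the counts were 2 in WT day 2 against day 0 and 5 in WT day 10 against day 0. The count was 4 in KO day 10 against day 0. This block also added calls of Gstm1 in WT day 10 against day 2 and of Gstp1 in KO day 10 against day 2. In KO against WT it added Gstm1 and Gstt1 at day 2 and Gstt1 at day 10. In the day 10 interaction it added Gsto1. A block at days 0 and 2 only, chosen after seeing the data, gave 5, 7 and 7 in WT (day 2 and day 10 against day 0, day 10 against day 2), 3, 5 and 5 in KO, 8 in KO against WT at day 2, and 1 and 4 in the interactions. For either block, the share of all genes called is not given, so its counts of members have no background to set them against. Whether calls rose as much over all genes was not tested. Depth limits Gsta2 and, in KO, Gsta1, where 3 counts correspond to 0.114 to 0.201 CPM per library. The genes of the related lists were not recomputed under the alternatives.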

Other observations

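Some of the genes beside the alpha-class members on the chromosome were read for their values, chosen for position after the members were seen. The set is partial. Values are not given for Omt2a and Omt2b, the pair before Gsta2, or for Tram2, Tmem14a, Khdc1a and Khdc1c, the genes around Gsta3. Ooep, the second gene after Gsta2 in the RefSeq gene order, which encodes an oocyte protein, was at 16.8 and 9.16 CPM in WT at day 0, 146 and 146 CPM in WT at day 10, 0.272 and 0.248 CPM in KO at day 0, 8.31 and 6.56 CPM in KO at day 10 and 73.7 CPM in the ESC library. Gm10639, the second gene after Gsta1 in that order, was at 0.588 and 0.419 CPM in WT at day 0, 1.43 and 0.395 CPM in WT at day 10, and at most 0.0525 CPM in any KO library. This gene was on the list compared with Gsta1 for shared windows. Whether its few counts are separate from those of Gsta1 was not tested. Dppa5a, the gene next to Gsta2 and a naive marker, was at 13.5 and 9.86 CPM in WT and 0.494 and 0.248 CPM in KO at day 0. It was at 1917 and 2272 CPM in WT and 116 and 64.7 CPM in KO at day 10. On the other side of the Gsta1 group, Ick (Cilk1 in RefSeq) and Fbxo9, the pair before Gsta4, had counts in every library. Ick overlapped between the genotypes at day 0, at 26.0 and 32.7 CPM in WT and 20.2 and 29.4 CPM in KO. Fbxo9 was lower in KO with no overlap, at 29.4 and 23.5 CPM in WT and 19.4 and 17.1 CPM in KO. No test was run on these genes for their position.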
